A study of Rattus norvegicus with 36 samples.

Results

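Hypoxic H9C2 cells that received the isomiR of miR-125b shortened by 3 bases (Trim AGU) were compared with hypoxic cells that received the isomiR shortened by 2 bases (Trim AG), so that the mimics differed in the third trimmed base. The libraries were chosen by their labels, 3 of Hypoxia Trim AGU and 3 of Hypoxia Trim AG, which made 6 of the 36 libraries of the series. H9C2 is a rat cardiac myoblast line derived from embryonic heart, and a single line stands here for the cardiac cell. Every group was transfected with 25 nmol/L of a mimic for 24 h and then kept for 24 h in hypoxia, in serum-free low-glucose medium, or in normoxia. The other groups held a mimic control (MC), miR-125b itself, an isomiR with an added A (Plus A) and an isomiR without the last A (Trim A), each with 3 libraries at each oxygen level. Gene expression was measured by non-stranded sequencing of poly-A RNA, which does not show the mimics themselves. Total counts per library were 31870038 to 34048139 in Hypoxia Trim AGU and 39940056 to 42672520 in Hypoxia Trim AG, and levels are given as CPM, the count divided by the library total after TMM scaling and multiplied by a constant, so that they compare a gene between libraries and not genes with each other.

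A microRNA guides the Argonaute protein to messenger RNAs, mainly through its seed near the 5′ end, and the bound messengers are translated less and degraded. IsomiRs that differ only at the 3′ end keep the seed, while the end itself takes part in the stability of the small RNA and in supplementary pairing. miR-125b is known in the heart and elsewhere for targets among pro-apoptotic genes. The mimics are shown here because the whole comparison rests on their last bases. Sequences are 5′ to 3′, with the seed (bases 2 to 8) in capitals, and were derived from the mature rno-miR-125b-5p of RefSeq (GRCr8, chr11:29732588-29732609, + strand, within *Mir125b2*) by removing or adding bases at the 3′ end as the labels describe.
miR-125b: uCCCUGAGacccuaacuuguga
Trim A: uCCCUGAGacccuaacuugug
Trim AG: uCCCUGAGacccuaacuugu
Trim AGU: uCCCUGAGacccuaacuug
Plus A: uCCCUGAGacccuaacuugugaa
Trim AG has 20 bases and ends in U, Trim AGU has 19 bases and ends in G, and both share the seed CCCUGAG with the other 3 forms.

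The library Hypoxia Trim AGU replicate 2 stood apart from the others. Its root mean square difference in log2 CPM from the other 5 libraries was 0.918 to 1.03, against 0.403 to 0.653 among those 5. Relative to the mean of the 6 libraries, genes with the shortest transcripts (up to 1328 bases) were higher in it by a median log2 difference of 0.290, and genes with the longest (3490 bases or more) were lower, at -0.308. Results are therefore given with this library and, where they differ, without it. All 8 myoblast markers were read in every library, *Vim*, *Cdh15*, *Ncam1* and *S100a4* at 193 CPM or more, *Myod1*, *Myog* and *Tnnt2* at 10.5 to 61.3 CPM and *Des* at only 1.31 to 1.74 CPM. Of 6 markers of adult cardiomyocytes, *Ryr2*, *Nppa*, *Myh6* and *Nppb* were at 0.744 CPM or less and *Tnni3* and *Pln* at 1.16 to 2.94 CPM. Of the endothelial markers, *Emcn* was at 0 in all 6 libraries, *Vwf* did not exceed 0.148 CPM and *Tek* was at 0.779 to 2.07 CPM. Of the leukocyte markers, *Ptprc* and *Adgre1* did not exceed 0.187 CPM, *Csf1r*, *Itgam* and *Cd68* were at 0.249 to 1.59 CPM and *Cd14* at 10.6 to 21.1 CPM. In bulk RNA, fewer cells of a kind and less RNA per cell cannot be told apart.

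**Figure D1:**
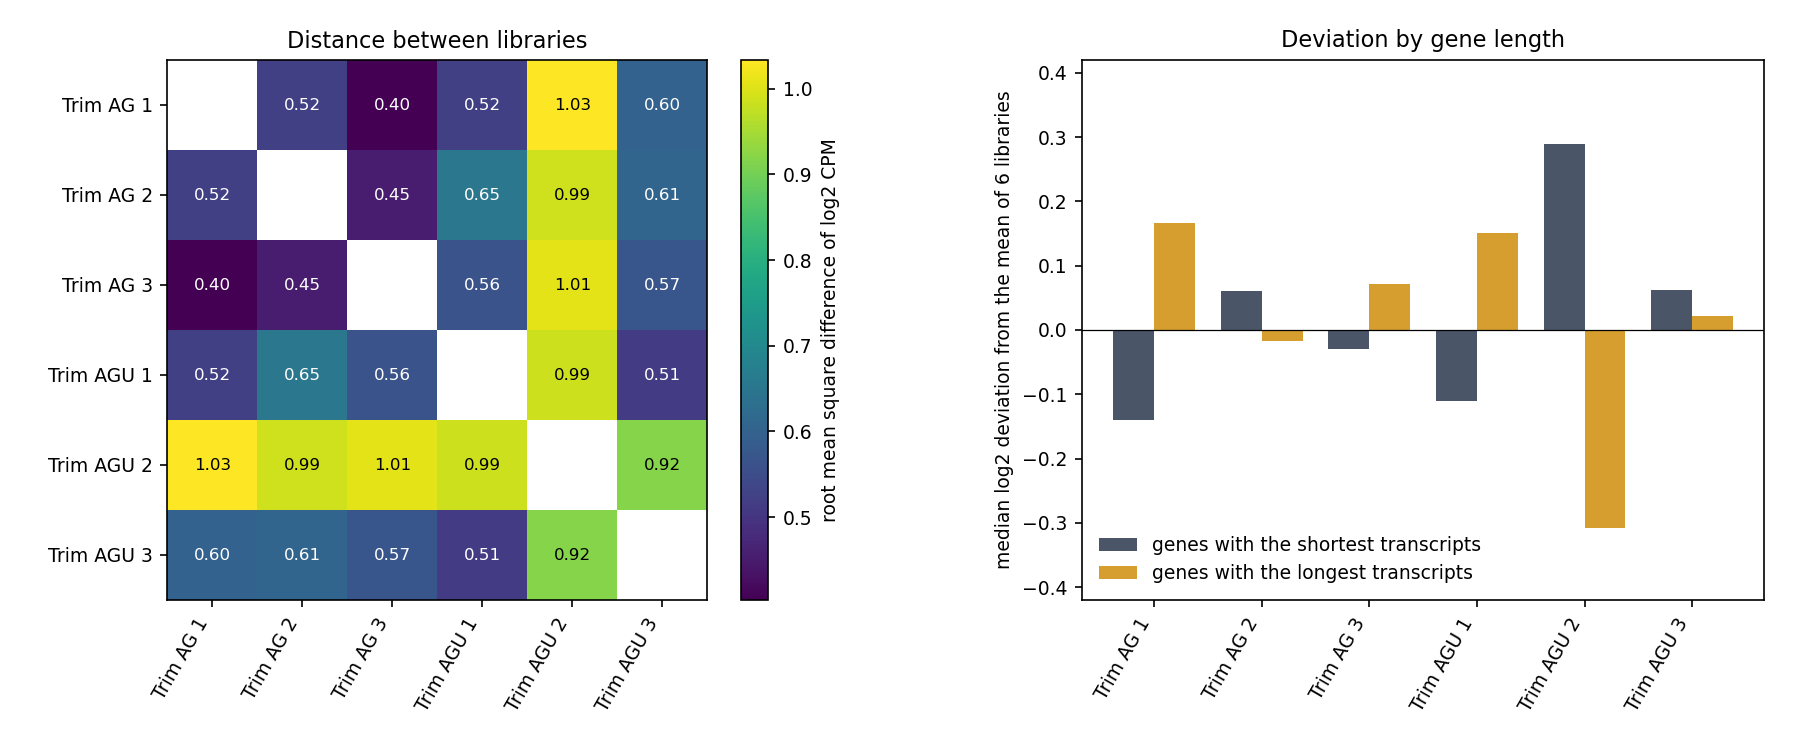
Left, the root mean square difference of log2 CPM between each pair of the 6 libraries; right, the median log2 deviation of each library from the mean of the 6, for genes with transcripts of up to 1328 bases and of 3490 bases or more. Hypoxia Trim AGU replicate 2 lay at 0.918 to 1.03 from every other library and had the widest split between short and long genes, 0.290 against -0.308.

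In edgeR, few genes were called between Trim AGU and Trim AG with all 6 libraries. More were called without the library that stood apart, and also by DESeq2 with all 6. Of 15151 genes tested with edgeR's quasi-likelihood test, 36 were higher in Trim AGU (0.238%) and 30 lower (0.198%), 0.436% in all. A gene was called where the fold was 1.5 or more and the adjusted p under 0.05. All 66 had libraries that did not overlap between the groups, as did 25.8% of all genes tested. At an unadjusted p below 0.05 there were 2333 genes. Without Hypoxia Trim AGU replicate 2, 268 genes were higher (1.72%) and 161 lower (1.03%), 2.75% of 15610 in all, and all 66 genes were among them. No gene passed in each of the 6 fits that left out 1 library, and none changed its direction in any of them. Leaving out Hypoxia Trim AG replicate 1, Hypoxia Trim AG replicate 3 or Hypoxia Trim AGU replicate 3 left no gene past the threshold, with 1133 to 1956 genes at an unadjusted p below 0.05. Leaving out Hypoxia Trim AG replicate 2 left 1 gene, and leaving out Hypoxia Trim AGU replicate 1 left 14. DESeq2 on the same 6 libraries called 365 genes higher (2.41%) and 232 lower (1.53%), 3.94% in all, with all 66 among them. The labels do not say whether replicates are separate cultures, so p-values measure only the spread between these libraries.

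**Figure D2:**
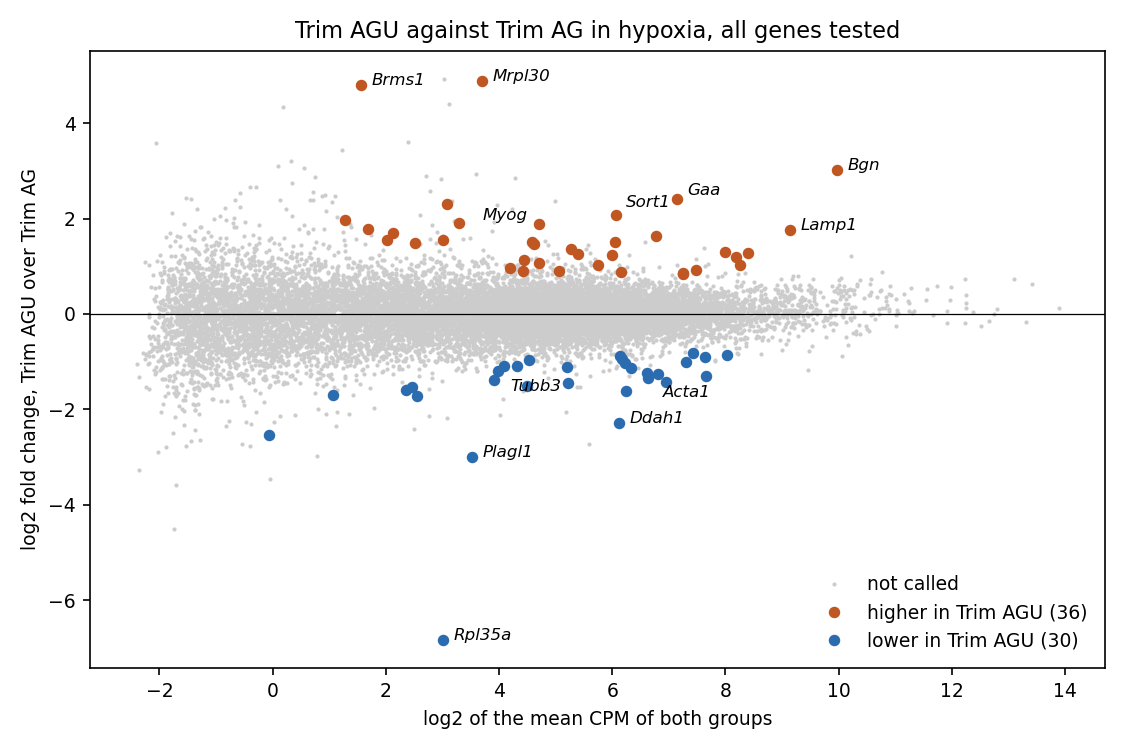
Each point is a gene tested in hypoxia, with the log2 of its mean CPM over both groups on the x axis and its log2 fold change of Trim AGU over Trim AG on the y axis. The 36 genes called higher and the 30 called lower are coloured, and *Bgn* lies far to the right at 3.02.

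Genes of the lysosome, the compartment that degrades proteins, glycogen and lipids with acid hydrolases, were among those higher in Trim AGU. *Lamp1*, a major glycoprotein of the lysosomal membrane (chromosome 16, 81689590 to 81706561, − strand, in the unnamed build of the files), read 278, 231 and 259 CPM in the Trim AG libraries and 897, 891 and 820 CPM in the Trim AGU libraries. All Trim AGU libraries were thus far above all Trim AG libraries, with a log2 fold change of 1.77 ± 0.143 (SE) and an adjusted p of 0.0125. *Gaa*, the acid alpha-glucosidase that breaks down lysosomal glycogen, read 58, 32 and 43.9 CPM in Trim AG and 308, 202 and 200 CPM in Trim AGU. The difference came to 2.41 ± 0.274 on the log2 scale, with an adjusted p of 0.0299, although *Gaa* varied among the libraries of each group. *Ctsd*, the aspartic protease cathepsin D, read 223, 177 and 196 CPM in Trim AG and 487, 525 and 420 CPM in Trim AGU, a log2 fold change of 1.27 ± 0.155 (adjusted p = 0.0339). *Sort1*, or sortilin, a receptor that sorts cargo from the Golgi toward endosomes and lysosomes, read 30.8, 22.4 and 23.7 CPM in Trim AG and 129, 93.1 and 101 CPM in Trim AGU. Its log2 fold change was 2.07 ± 0.194, with an adjusted p of 0.0142, and again no library of either group reached the other group.

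A list of 44 lysosomal proteins and their sorting receptors was drawn up after these 4 genes had been seen, so it describes the neighbourhood of the finding and gives it no support. Its 44 members were all tested, and 4 were called higher and 0 lower, against 0.238% and 0.198% of all genes tested. The median log2 fold change was 0.41, against 0.005 over all genes tested, with 34 members fitted above 0 and 10 below. Without Hypoxia Trim AGU replicate 2, 6 members were called higher, with *Gusb*, or beta-glucuronidase, among the added ones at 0.92. In that fit 1.72% of all genes tested were called higher. Not every lysosomal gene was higher: the membrane protein *Lamp2* had a log2 fold change of 0.10 (95% interval -0.26 to 0.45), the protease *Ctsb* one of -0.31 (-0.71 to 0.08), and neither passed the test. The lysosomal growth factor precursor *Grn* stood at 0.86 with an adjusted p of 0.152.

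Promoters of these genes are shown because TFEB and related factors are known to bind CACGTG, often as the longer TCACGTGA, near the start of many lysosomal genes. The motif was chosen after the genes had been seen, and a match is a description of the sequence only. In RefSeq promoters (GRCr8, from 250 bases before to 50 bases after the start), CACGTG, which reads alike on both strands, was present in 6.42% of 33469 promoters. *Lamp1* held 5 copies, a number no other promoter of the table reached, *Ctsd* held 2 copies and *Gaa* held 1, while *Sort1* held none. The longer TCACGTGA, which contains CACGTG, was present in the promoters of *Lamp1*, *Ctsd* and *Sephs2*, another gene called higher, and in 0.777% of all promoters. The windows below have CACGTG in capitals. For *Lamp1* and *Ctsd* only the copies within TCACGTGA are shown, and their other copies lack the longer form.
Lamp1, chr16:83075112-83075139, − strand: gaccctcggctCACGTGaccggcgggcg
Lamp1, chr16:83075085-83075112, − strand: gcggcactgttCACGTGacaggcgctgc
Ctsd, chr1:206968815-206968842, − strand: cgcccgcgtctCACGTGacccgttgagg
Gaa, chr10:105028277-105028304, + strand: cgcccacaaacCACGTGacccacgctgc
Of the 36 genes called higher, 24 matched a promoter by symbol and 5 of them held CACGTG, and of the 30 called lower, 20 matched and 2 held it.

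Of the muscle genes, a regulator of differentiation and 2 receptor subunits were higher in Trim AGU and an actin was lower. *Myog*, or myogenin, a transcription factor that drives terminal muscle differentiation (chromosome 13, 51126459 to 51129048, + strand), read 11.5, 10.5 and 11.5 CPM in Trim AG and 41.8, 44.8 and 36.4 CPM in Trim AGU. Every Trim AGU library was above every Trim AG library, with a log2 fold change of 1.88 ± 0.150 and an adjusted p of 0.0125. *Chrna1* and *Chrnd* encode the alpha and delta subunits of the nicotinic acetylcholine receptor of muscle. *Chrna1* read 1.33, 1.61 and 1.40 CPM in Trim AG and 5.13, 4.39 and 5.38 CPM in Trim AGU (1.78 ± 0.226, adjusted p = 0.0375). *Chrnd* read 1.14, 0.806 and 1.00 CPM in Trim AG and 4.42, 3.33 and 3.86 CPM in Trim AGU (1.98 ± 0.263, adjusted p = 0.0375). Both receptor genes were weakly expressed in all 6 libraries, and their groups did not overlap. Of 9 receptor and junction genes tested, a list drawn up after these values were seen, the other 7 did not pass the test, among them *Chrnb1* at -0.57 (adjusted p = 0.193) and *Rapsn*, which clusters the receptor, at 0.28. Of all genes tested, 0.436% were called.

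*Acta1*, the actin of skeletal muscle thin filaments, lay in the opposite direction. It read 177, 141 and 159 CPM in Trim AG and 66.7, 77.5 and 54 CPM in Trim AGU, a log2 fold change of -1.27 ± 0.173 (adjusted p = 0.0410). Of 28 sarcomere and muscle genes tested, *Myog* was called higher and *Acta1* lower, against 0.238% and 0.198% of all genes tested. The median log2 fold change of the list was 0.25, against 0.005 over all genes tested. Without Hypoxia Trim AGU replicate 2, 5 were higher and 2 lower, the added ones being *Tnnt2*, *Tnni1*, *Mylpf* and *Mef2c* above and *Cnn1* below. In that fit 1.72% of all genes tested were called higher and 1.03% lower, and the median of the list was 0.14. In normoxia the list went the other way, with a median of -0.27 over 27 members tested. There 0 members were called higher and 3 lower, against 1.57% and 1.27% of all genes tested. *Tnnt2*, the thin-filament protein cardiac troponin T, read 14.5, 16.5 and 16 CPM in Trim AG and 32.3, 61.3 and 34.2 CPM in Trim AGU. The highest of these values came from the library that stood apart, and *Tnnt2* had a log2 fold change of 1.45 ± 0.258 (adjusted p = 0.0699) with it and of 1.10 (adjusted p = 0.00869) without it. *Pfkm*, the muscle isoform of phosphofructokinase, and *Sgcb*, or beta-sarcoglycan of the dystrophin complex, belonged to no list and were called higher at 1.36 and 0.91. *Myod1*, which acts before myogenin, stood at -0.57 with an adjusted p of 0.238.

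The matrix proteoglycans *Bgn* and *Lum* were higher in Trim AGU, and the main fibrillar collagens did not pass the test. *Bgn*, or biglycan (X chromosome, 157319046 to 157331204, − strand), read 303, 143 and 216 CPM in Trim AG and 2160, 1700 and 1500 CPM in Trim AGU. Its log2 fold change was 3.02 ± 0.305, with an adjusted p of 0.0168, and the lowest Trim AGU library was far above the highest Trim AG library. *Lum*, or lumican, a small proteoglycan that binds collagen fibrils, read 3.96, 4.21 and 4.26 CPM in Trim AG and 9.65, 14.1 and 12.3 CPM in Trim AGU (1.54 ± 0.207, adjusted p = 0.0386). Of 30 collagen and matrix genes tested, these 2 were called higher and 0 lower, against 0.238% and 0.198% of all genes tested. The median of the list was 0.28, against 0.005 over all genes tested. Without Hypoxia Trim AGU replicate 2, 6 were higher, with the proteoglycans *Dcn* and *Ogn*, the crosslinking enzyme *Lox* and the collagen *Col8a1* added. In that fit 1.72% of all genes tested were called higher. *Col1a1* and *Col3a1*, the main fibrillar collagens, stood at 0.64 (95% interval -0.16 to 1.43) and 0.73 (-0.01 to 1.47), and their libraries overlapped between the groups. *Sdc4*, a cell-surface heparan sulfate proteoglycan outside the list, was called higher at 1.03.

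**Figure D3:**
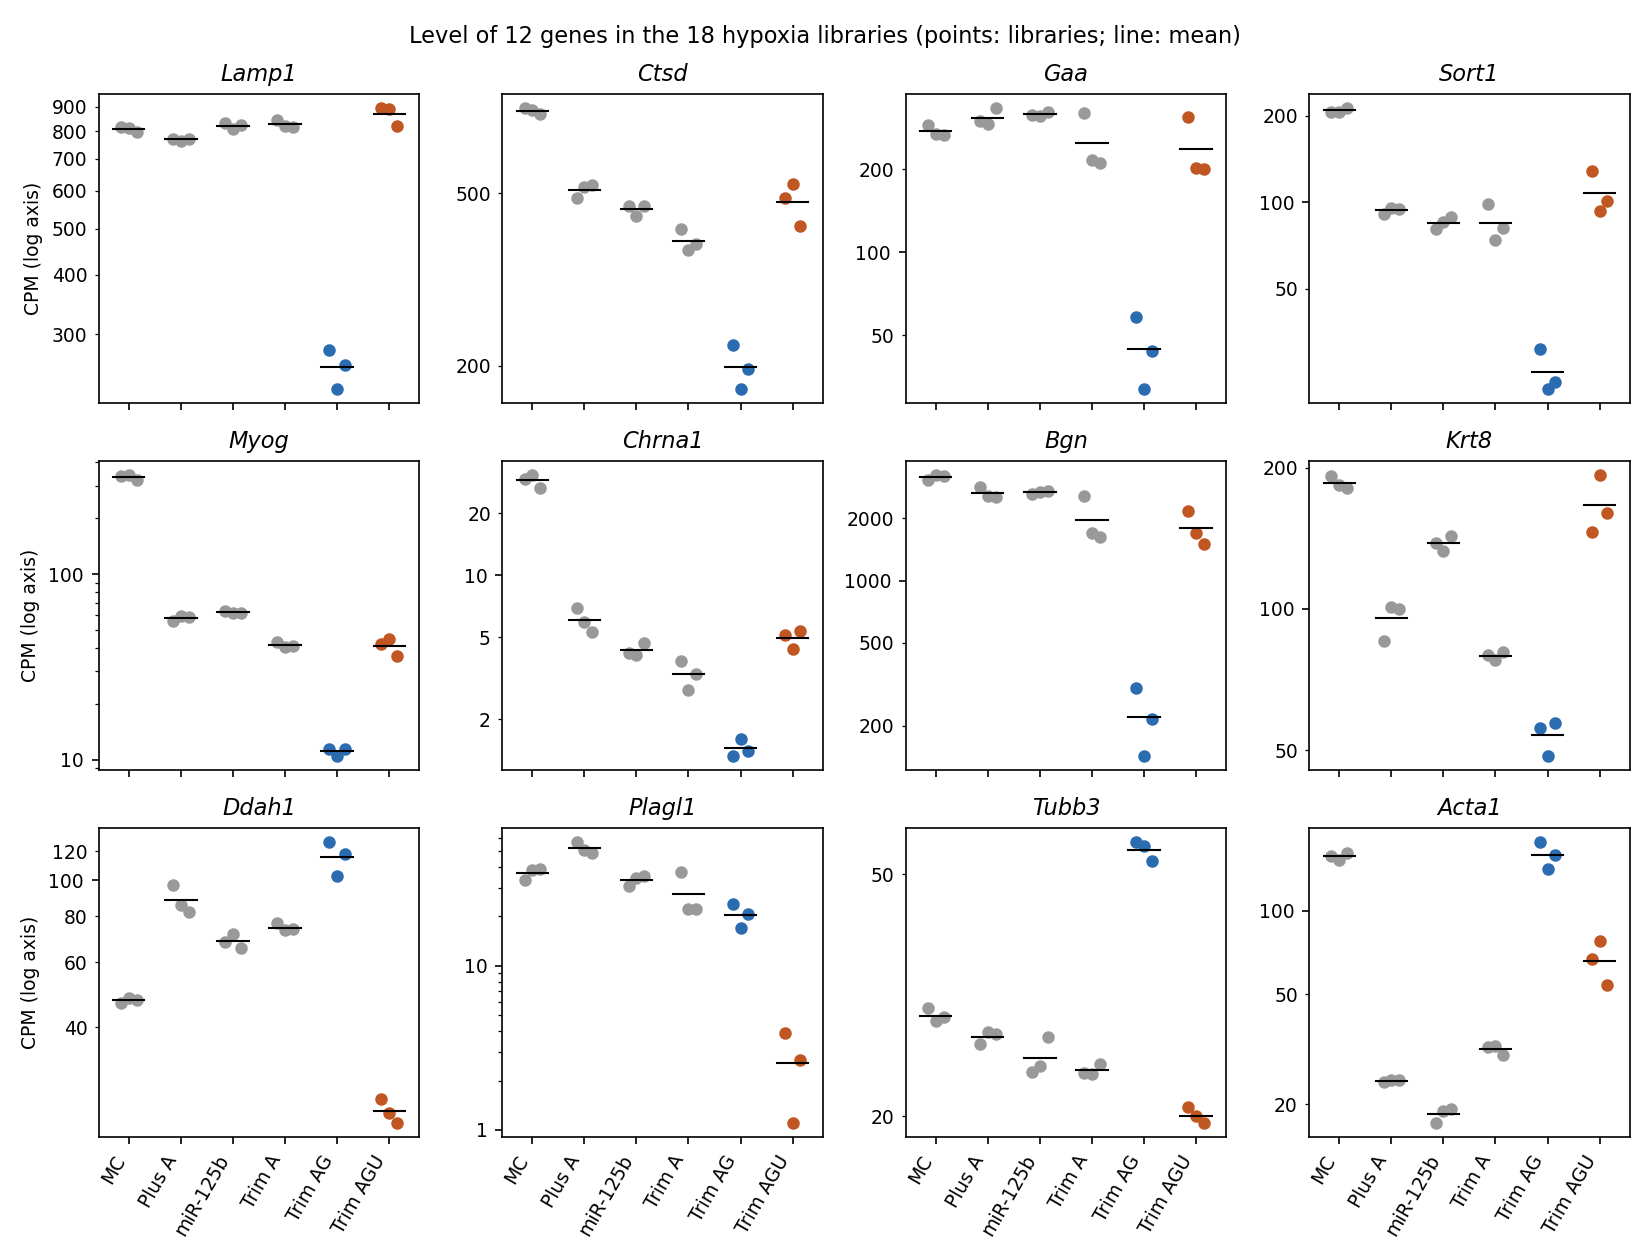
Each panel gives a gene's CPM on a log axis in the 3 libraries of the 6 hypoxia groups, with a line at the group mean; Trim AG is blue, Trim AGU is orange and the other groups are grey. For *Lamp1*, *Gaa* and *Bgn* the Trim AG libraries lie below all 15 others, and for *Ddah1* and *Plagl1* the Trim AGU libraries do.

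The remaining genes called higher had varied roles. *Krt8*, a keratin of simple epithelia, read 55.7, 48.6 and 57 CPM in Trim AG and 146, 193 and 160 CPM in Trim AGU (1.63 ± 0.153, adjusted p = 0.0142). The other markers of the epithelial list did not move with it, since *Epcam*, *Cdh1* and *Krt18* were at 0.190 CPM or less in all 6 libraries, so the summed level of the 4 markers, 48.8 to 57.2 CPM in Trim AG and 146 to 193 CPM in Trim AGU, was almost all *Krt8*. *Pea15*, a death effector domain protein that restrains apoptotic signalling, rose from 139, 153 and 152 CPM in Trim AG to 312, 427 and 351 CPM in Trim AGU (1.30 ± 0.154, adjusted p = 0.0310). *Jak3*, a tyrosine kinase of cytokine receptors, was higher at 1.51, and *Kpnb1*, the nuclear import receptor importin beta, at 1.02. *Rcn3*, a calcium-binding protein of the secretory pathway, stood at 1.20, and *Arpc5*, a subunit of the actin-nucleating complex, at 0.83. Of the 36 genes called higher, 7 had no usable gene name, as did 4 of the 30 called lower.

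*Brms1*, *Mrpl30* and a gene of the name *Rpl35a* had the largest fold changes of the 66 genes, and they varied between replicates of other groups too. *Mrpl30*, a mitochondrial ribosomal protein, read 0.475, 1.46 and 0.628 CPM in Trim AG and 14.8, 29.5 and 30.7 CPM in Trim AGU, a log2 fold change of 4.87. *Brms1*, a transcriptional corepressor, read 0.214, 0.227 and 0.163 CPM in Trim AG and 3.77, 9.32 and 3.92 CPM in Trim AGU, a log2 fold change of 4.80. *Rpl35a* (ENSRNOG00000047557), a name that other identifiers share, read 15.9, 14.8 and 17.1 CPM in Trim AG and 0.218, 0 and 0.178 CPM in Trim AGU, a log2 fold change of -6.83. *Rpl35a* was below 1 CPM in 14 of the other 27 libraries and reached 27.5 CPM in another, and its replicates differed by more than 5-fold in 7 of the other 9 groups analysed. The same held in 6 of these groups for *Brms1* and in 2 groups for *Mrpl30*. Ribosomal protein genes have near-identical copies, so counts of *Rpl35a* are uncertain.

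Among the genes lower in Trim AGU, *Ddah1* had the lowest adjusted p of all genes. *Ddah1* degrades asymmetric dimethylarginine, an inhibitor of nitric oxide synthases (chromosome 2, 251634431 to 251766014, + strand). It read 127, 103 and 118 CPM in Trim AG and 25.6, 23.4 and 22 CPM in Trim AGU, with a log2 fold change of -2.29 ± 0.144 and an adjusted p of 0.00588. *Plagl1*, an imprinted zinc-finger transcription factor that restrains proliferation (chromosome 1, 7252349 to 7259035, + strand), read 24, 16.9 and 20.7 CPM in Trim AG and 3.89, 1.10 and 2.67 CPM in Trim AGU. Its log2 fold change was -2.99 ± 0.425 (adjusted p = 0.0421), and the lowest value came from the library that stood apart. In both genes no library of one group reached the other group.

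*Tubb3*, a beta-tubulin typical of neurons, read 56.5, 55.6 and 52.5 CPM in Trim AG and 20.7, 20 and 19.5 CPM in Trim AGU (-1.45 ± 0.127, adjusted p = 0.0136). The other neuronal markers matched, *Syp* and *Rbfox3*, were at 0.156 CPM or less. *Nckap1*, a subunit of the complex that activates actin branching, read 289, 291 and 286 CPM in Trim AG and 135, 88.4 and 126 CPM in Trim AGU (-1.30 ± 0.181, adjusted p = 0.0421). *Mical2*, a monooxygenase that oxidizes actin, and *Myo1d*, an unconventional myosin, were lower at -1.62 and -1.42. *Rai14* and *Akap12*, a scaffold of protein kinase A, stood at -0.82 and -1.01. *Tsc22d3*, which glucocorticoids induce, read 125, 166 and 138 CPM in Trim AG and 52.7, 62.9 and 53 CPM in Trim AGU (-1.35 ± 0.155, adjusted p = 0.0299). *Gatm*, the first enzyme of creatine synthesis, was lower at -1.38, *Idh3a* of the citric acid cycle at -0.94, *Pawr*, a pro-apoptotic factor, at -1.24, and *Tgfb3*, a growth factor, at -0.86. *Grb7*, an adaptor of receptor kinases, and *Ncald*, a neuronal calcium sensor, stood at -1.71 and -1.52.

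The position of the other hypoxia groups, which took no part in the test, was described for these genes without a test. For 30 of the 36 genes called higher, the 3 Trim AG libraries lay below all 15 other hypoxia libraries, whereas the Trim AGU libraries lay above all others for 4, *Agk*, *Sephs2* and the unnamed genes AABR07015057.1 and AABR07063425.2. Among all genes tested, the Trim AG libraries lay lowest for 4.64% and the Trim AGU libraries highest for 1.11%, shares that are not a like-for-like background because the 3 libraries of the other trimmed isomiR are among the 15. The Trim AG libraries also had higher total counts, 39940056 or more, than the 15 other hypoxia libraries, at 29091343 to 34505938. Whether this bears on their position was not tested. The mean log2 CPM of miR-125b was nearer to Trim AGU than to Trim AG for 32 of the 36 genes, or 88.9%, against 51.8% of all genes tested. Without Hypoxia Trim AGU replicate 2 it was nearer for 88.1% of the 268 genes then called higher, against 62.5% of all genes tested. *Lamp1* averaged 821 CPM with miR-125b, 810 CPM with MC, 828 CPM with Trim A and 870 CPM with Trim AGU, against 256 CPM with Trim AG. *Bgn* averaged 2660 CPM with miR-125b, 3160 CPM with MC and 1950 CPM with Trim A, against 221 CPM with Trim AG. *Myog* was different in that MC, at 334 CPM, lay far above miR-125b at 62.4 CPM, Trim AGU at 41 CPM and Trim AG at 11.2 CPM. MC was also far above for *Chrna1*, at 28.9 CPM against 4.97 CPM with Trim AGU, and for *Chrnd*, at 24.5 CPM against 3.87 CPM.

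The genes called lower were divided. The Trim AGU libraries lay below all 15 others for 17 of the 30, among them *Ddah1*, *Plagl1*, *Tsc22d3*, *Nckap1* and *Mical2*, and the Trim AG libraries lay above all others for 14, among them *Tubb3*, *Tgfb3*, *Akap12* and *Krt80*. Among all genes tested these shares were 1.85% and 4.5%, with the same limit as above. Of the genes called lower, *Ddah1*, *Idh3a*, *Pawr*, *Rai14* and *Tubb3* were in both counts. The mean of miR-125b was nearer to Trim AGU for 10 of the 30 genes, or 33.3%, and lay between the groups for 20. It was nearer to Trim AGU without Hypoxia Trim AGU replicate 2 for 82 of 161 genes called lower, or 50.9%, against 62.5% of all genes tested. *Ddah1* averaged 116 CPM with Trim AG, 68.4 CPM with miR-125b, 47.3 CPM with MC and 23.6 CPM with Trim AGU. *Acta1* had another order, with 159 CPM in Trim AG, 158 CPM in MC, 66.1 CPM in Trim AGU and 18.4 CPM in miR-125b.

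**Figure D4:**
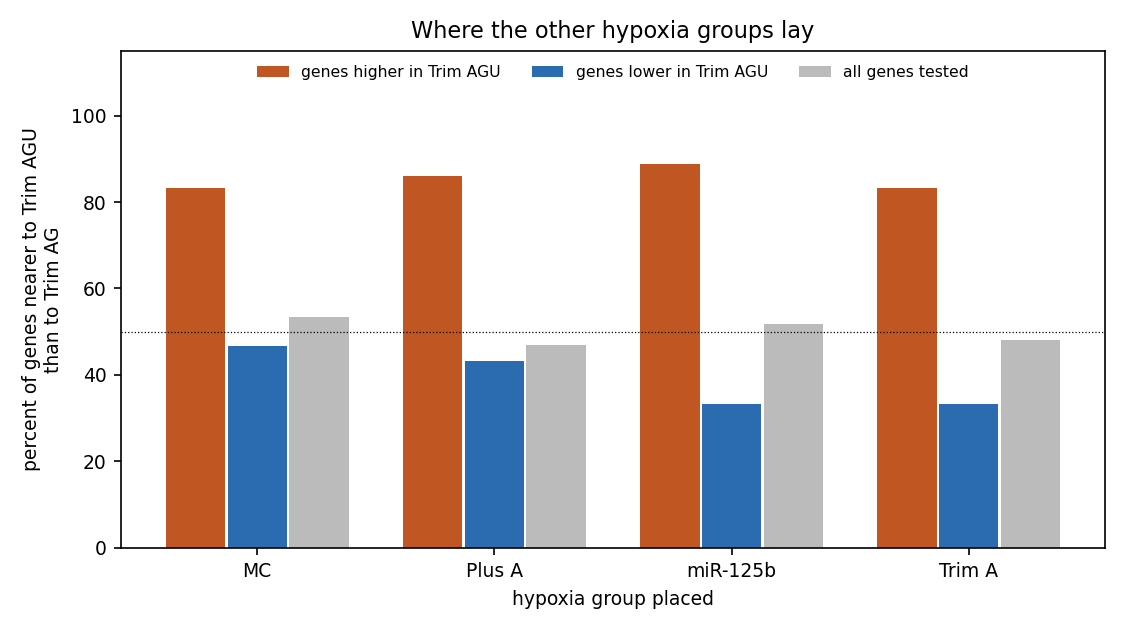
For each of the other 4 hypoxia groups, the bars give the percent of genes whose mean log2 CPM was nearer to Trim AGU than to Trim AG, for the genes called higher, the genes called lower and all genes tested; the dotted line marks 50%. The genes called higher stood at 83.3% to 88.9%, the genes called lower at 33.3% to 46.7% and all genes at 47% to 53.4%.

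The same pair of isomiRs was compared in normoxia, in libraries that hypoxia did not use. There, 232 genes were higher (1.57%) and 187 lower (1.27%) in Trim AGU among 14768 tested, 2.84% in all. Of the 36 genes called higher in hypoxia, 34 had the same sign in normoxia and 21 were called higher there, which is 58.3% of the hypoxia list and 9.05% of the normoxia list. Of the 30 called lower, 28 were tested, 27 had the same sign and 19 were called lower, which is 63.3% of the hypoxia list and 10.2% of the normoxia list. Over 14430 genes tested at both oxygen levels, 59.4% had the same sign. The median log2 fold change of the genes called higher was 1.48 in hypoxia and 0.75 in normoxia, and of those called lower -1.29 and -0.68, and the genes were chosen for their size in hypoxia. Without Hypoxia Trim AGU replicate 2, 99 of the 268 genes called higher in hypoxia were called higher in normoxia. That was 36.9% of that hypoxia list and 42.7% of the normoxia list. Of the 161 called lower without it, 50 were called lower in normoxia, 31.1% and 26.7% of the lists.

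*Lamp1* in normoxia read 276, 343 and 279 CPM in Trim AG and 704, 658 and 653 CPM in Trim AGU (1.17 ± 0.0944, adjusted p = 0.00110). *Gaa* was higher at 1.61, *Bgn* at 1.42, *Sort1* at 1.11 and *Ctsd* at 0.61 there, and all 4 were called. *Plagl1* read 29.5, 28.9 and 30.8 CPM in Trim AG and 3.52, 8.51 and 5.32 CPM in Trim AGU in normoxia, a log2 fold change of -2.36 ± 0.252 (adjusted p = 0.00201). *Ddah1* was lower at -1.29 and *Acta1* at -1.14. *Lum* and *Tgfb3* were not called in normoxia, at 0.34 and 0.07. The receptor genes *Chrna1*, at 0.72 (adjusted p = 0.243), and *Chrnd*, at 0.56 (adjusted p = 0.412), were not called there either.

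**Figure D5:**
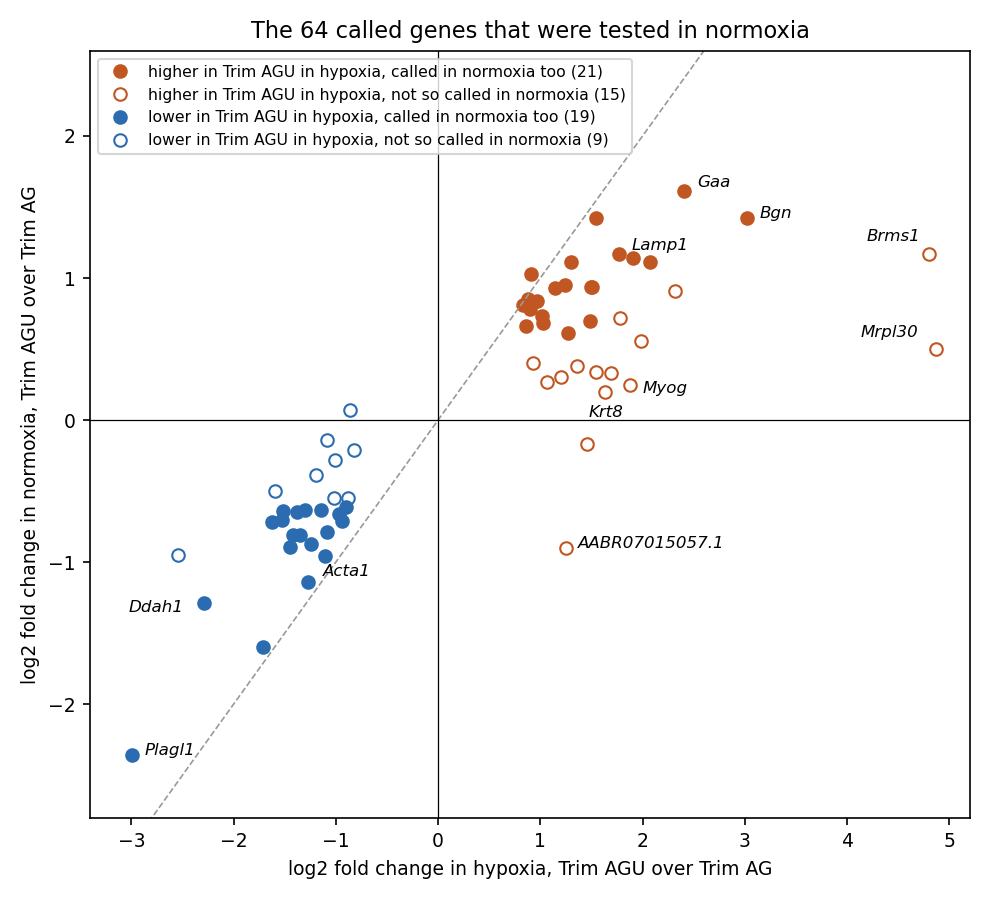
Each point is a called gene that was tested in normoxia too, with its log2 fold change of Trim AGU over Trim AG in hypoxia on the x axis and in normoxia on the y axis; filled points were called in the same direction in normoxia and the dashed line marks equal values. Most points lie in the lower left and upper right, and AABR07015057.1 lies at 1.25 and -0.90.

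Whether the difference between the isomiRs itself differed between hypoxia and normoxia was tested by an interaction over the 12 libraries. Hypoxic cells were also in serum-free low-glucose medium and normoxic cells were not, so oxygen and medium cannot be told apart. Of 15563 genes, 3 passed, 0.0193%, all with a larger value in hypoxia, and at an unadjusted p below 0.05 there were 1367 genes. *Myog* read 39.5, 52 and 40.9 CPM in Trim AG and 47.6, 58.1 and 51.5 CPM in Trim AGU in normoxia, with a log2 fold change of 0.25 (adjusted p = 0.247) and overlapping groups, so that the interaction was 1.65 ± 0.198 (adjusted p = 0.0165). *Krt8* had a normoxia log2 fold change of 0.20 (adjusted p = 0.256) and an interaction of 1.45 ± 0.193 (adjusted p = 0.0331). The third gene, AABR07015057.1 (chromosome 14, 46523594 to 46529375, − strand), had no assigned function in the files. It read 27.2, 23.2 and 24.7 CPM in Trim AG and 57.3, 56.5 and 64.6 CPM in Trim AGU in hypoxia, and 18.2, 15.4 and 15.6 CPM against 8.68, 8.20 and 9.47 CPM in normoxia. It was therefore called higher in hypoxia and lower in normoxia, with an interaction of 2.17 ± 0.164 (adjusted p = 0.000211). In other hypoxia groups its replicates varied, at 24.7, 8.58 and 20.2 CPM in Plus A and 21.1, 10.5 and 18.8 CPM in MC. Trim A read 13.2, 17.8 and 25.7 CPM, and miR-125b was steadier at 19.4, 17.0 and 19.5 CPM. For *Bgn* the interaction was 1.62 (95% interval 0.84 to 2.40, adjusted p = 0.313), and for *Lamp1* it was 0.62 (0.25 to 0.99, adjusted p = 0.423).

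Of 15 genes that the study names, mainly apoptotic genes and predicted targets of miR-125b, 0 were called by edgeR and 1 by DESeq2. The study chose some of them on these samples. *Bak1*, a pro-apoptotic protein of the mitochondrial membrane, read 64.8, 56.9 and 62.7 CPM in Trim AG and 60.4, 68.4 and 61.6 CPM in Trim AGU. Its groups overlapped, and the log2 fold change was 0.05 with a 95% interval of -0.25 to 0.34. *Bmf*, another pro-apoptotic gene, read 5.46, 3.95 and 4.91 CPM in Trim AG and 10.3, 3.40 and 9.27 CPM in Trim AGU. The low value was from Hypoxia Trim AGU replicate 2, and *Bmf* went from 0.69 (adjusted p = 0.454) with that library to 1.05 (adjusted p = 0.0330) without it. *Tp53inp2*, which acts in autophagy, stood at 0.55 (adjusted p = 0.123), and *Actb* at 0.42 (adjusted p = 0.235).

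Lists of hypoxia, growth and stress genes had no called member in edgeR with all 6 libraries. Over the 18 lists without one, those of the study's genes, of ribosomal proteins and of the respiratory chain included, 56 of 351 genes had an unadjusted p below 0.05, or 16%, against 15.4% of all genes tested, and DESeq2 called 13, or 3.7%, against 3.94%. Both shares were near those of all genes, and with 0.436% of all genes called the lack of calls does not set these lists apart. The lists of hypoxia, growth and stress held 18 genes of glycolysis with a median log2 fold change of 0.13, 15 other HIF targets (0.08), 25 of mitosis (-0.08), 24 of DNA replication (-0.17), 19 p53 targets (-0.02), 28 of the unfolded protein and integrated stress responses (-0.10), 26 of sterol and fatty acid synthesis (-0.04) and 24 of the interferon response (0.39). *Gapdh* of glycolysis stood at 0.55 (95% interval -0.01 to 1.11), *Vegfa*, the HIF-induced angiogenic factor, at -0.25 (-0.80 to 0.30), the mitotic *Prc1* at -0.20 (-0.56 to 0.16), *Ccng1*, a p53 target, at -0.67 (-1.10 to -0.24) and the chaperone *Hspa5* at -0.06 (-0.38 to 0.27). Also without a call were 14 reported miR-125b targets outside apoptosis (-0.07), 23 genes of microRNA processing (-0.12), 13 NRF2 targets (0.32), 11 heat shock chaperones (0.02), 17 immediate early genes (-0.26) and 16 of NF-kB and cytokines (-0.01). Members of 7 of the 18 lists were called without Hypoxia Trim AGU replicate 2, 10 of 352 genes or 2.84%, against 2.75% of all genes. They were *Bmf* and *Tnnt2* of the study's genes, *P4ha1* at 0.94, *Nqo1* at 0.73 and *Cxcl12* at 0.64 above, and *Asns* at -0.72 and *Sc5d* at -0.77 below, and the immediate early genes *Dusp1* at -0.62, *Klf2* at -0.69 and *Maff* at -0.69, also below.

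The lists of short, abundant transcripts moved with the library that stood apart. The 27 ribosomal protein genes had a median of 0.46 with it and of 0.14 without it, and 0 were called. *Rplp0*, of the ribosomal stalk, read 2760, 3860 and 3240 CPM in Trim AG and 3070, 7710 and 3810 CPM in Trim AGU, the highest value being that library's. The 32 nuclear genes of the respiratory chain went from 0.17 to -0.07 and the 11 mitochondrially encoded genes from 0.12 to -0.25, also with 0 called.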

How the data were processed

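The authors deposited a table for each pair of groups compared, and 11 of these tables hold whole-number counts per gene and library, not normalized. Per the labels' processing notes, HISAT2 and StringTie were used, with roles, versions, genome build and annotation not given in the sources used here, so coordinates are in the files' own build. The tables also hold the authors' normalized values and FPKM (132 columns) and the fold changes and p-values of their DESeq2 test, none of which were used. The deposited gene lengths served the length correction. Counts of 33 of 36 libraries were joined on the gene identifier into 24275 genes; Normoxia MC was not analysed here. A gene that a table leaves out was given 0 (at most 1 count where another table lists it), and conflicting counts numbered 0. The libraries were not stranded, so overlapping, antisense and near-identical genes are uncertain, and 312 names are carried by more than 1 identifier.

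For each comparison only the libraries it compares were fitted, in edgeR 4.0.16 (R 4.3.3), with TMM normalization, the filterByExpr filter and the quasi-likelihood test, with Benjamini-Hochberg adjustment over all genes tested. A gene was called where the adjusted p was under 0.05 and the fold was 1.5 or more. The interaction was (Hypoxia Trim AGU minus Trim AG) minus (Normoxia Trim AGU minus Trim AG). Intervals are 95% and, like the standard errors, come from the same fit. DESeq2 1.42.0 and limma 3.58.1 with library weights were alternatives. The steps were tested on simulated data. Named genes were the called genes with the largest fold changes, those the study names, members of each list and the interaction genes. Other called genes, and those called only without Hypoxia Trim AGU replicate 2, were picked out once their values had been seen. The libraries compared and the gene lists were chosen with earlier results of these data known. Lists are described by counts and medians and were not tested. Some genes are not reported here.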

Additional observations from a re-analysis of the deposited data

Results flagged for a closer look

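The difference between Trim AGU and Trim AG was itself different in hypoxia and normoxia, which also differed in medium, by the interaction test, for 3 genes. The log2 difference of the contrasts was 2.17 for AABR07015057.1, which was higher in Trim AGU in hypoxia and lower in normoxia, 1.65 for *Myog* and 1.45 for *Krt8*. With 1 of the 12 libraries left out at a time, 1 to 5 genes passed this test. Groups of 3 libraries are too small for a test of single outlying values.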

How the results depend on the processing

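The 36 genes higher and 30 lower became 365 and 232 in DESeq2, 872 and 843 when all 33 libraries shared a fit, 183 and 92 with the gene length trend removed, and 832 and 633 with limma and library weights, an alternative chosen after the data were seen. With each library left out in turn they were 0 to 268 and 0 to 161. They stayed within 1.5 times under RLE normalization, no filter, thinning of Trim AG to the depth of Trim AGU and both other fold thresholds. A replicate block left 2 and 1 genes called. Same-numbered libraries had correlated deviations of 0.267, 0.173 and 0.0495, all above those of differently numbered libraries, -0.259 to 0.0189. The labels do not say whether the numbers pair libraries, and the main fits did not pair them. The 3 interaction genes became 58 in DESeq2, 211 when all libraries shared a fit, and 1 to 5 with a library left out. The 419 normoxia calls became 114 at 2-fold, 1162 without a fold threshold and 145 to 417 with a library left out. Without Hypoxia Trim AGU replicate 2, MC was nearer to Trim AGU for 71.4% of the 161 genes then called lower, against 65.3% of all genes tested. With all 6 libraries it was nearer for 46.7% of the 30 genes called lower, against 53.4% of all genes tested. No called gene reversed; *Bak1*, at 0.05, ranged from -0.01 to 0.09 with a library left out and was -0.01 with library weights. Why these values moved was not tested. Counting error is small at these depths for genes with many counts, and there the spread between 3 libraries limits the precision. It is not small for genes with few counts in a group, such as *Brms1* in Trim AG and *Rpl35a* in Trim AGU.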
